A study of Homo sapiens with 18 samples.

Results

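The Notch pathway was followed through 10 genes of the 61541 listed in both count tables: the receptors NOTCH1, NOTCH2 and NOTCH3, the ligands JAG1, JAG2, DLL1 and DLL4, and the targets HES1, HEY1 and NRARP. They were found by name, from Ensembl identifiers matched to GENCODE symbols. The cells were A549, a human lung adenocarcinoma line labelled wild type. They were given sodium propionate (SP), the salt of a short-chain fatty acid, at 5 mM for 3 h, 24 h, 3 days or 12 days. Untreated A549 cells were the controls, taken at 24 h and at 3 days. RNA-seq was made from total RNA in 18 libraries, 3 per group. The 24 h control served both the 3 h and the 24 h treatment, and the 3-day control served both the 3-day and the 12-day treatment, so these comparisons share control libraries. The 3 h and 24 h groups stand in one count table with their control (the hours table) and the 3-day and 12-day groups in another (the days table). The 3 h treatment had no control of its own time, and neither had the 12-day treatment.

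Notch receptors sit in the cell membrane and are switched on by ligands on a neighbouring cell. A bound receptor is cut by an ADAM protease and then by gamma-secretase, and its inner part enters the nucleus. There it joins the DNA-binding protein RBPJ and a Mastermind coactivator and turns on genes of the HES and HEY families, which encode repressors, and of NRARP, which encodes a feedback inhibitor of the active receptor. In the airway epithelium the pathway is known for steering the choice between secretory and ciliated cells.

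The libraries held between 14187401 and 43765330 counts, and all 10 genes passed the filter on low counts in both tables. The 6 epithelial markers KRT8, KRT18, KRT19, EPCAM, CDH1 and ALDH1A1 summed to between 12270 and 20180 CPM (counts scaled to the TMM-adjusted size of each library), and none was at 0 reads in any group. CD3E, a T-cell gene, was at 0 reads in every group, and the club-cell genes SCGB1A1 and SCGB3A2 summed to at most 0.0998 CPM. FOXJ1, TUBB4B and PIFO, the ciliated list, summed to between 654 and 1103 CPM in the hours table and 179 and 399 in the days table. In Control 24 h, SP 3 h, SP 3 days and SP 12 days, 1 of the 3 genes had few reads. This sum does not show which gene carries it. The neuroendocrine list of CHGA, SYP and INSM1 summed to between 1.90 and 9.31 CPM over all groups. The part of the ciliated and neuroendocrine lists in the results was not tested. The blood list of CD14, PTPRC and CD3E summed to between 2.94 and 3.91 CPM in Control 24 h. Its sum was between 14.2 and 16.4 in SP 24 h, 16.2 and 17.8 in Control 3 days and 34.1 and 37.4 in SP 3 days. PTPRC, like CD3E, was at 0 reads in every group of the hours table, so the sum there was CD14 alone. In each group over days, 2 of the 3 genes, CD3E included, had few or no reads, so 1 gene made up nearly the whole sum. The part of the blood list in the results was not tested. PDGFRA, DCN and LUM, the fibroblast list, summed to between 1.18 and 1.44 CPM in Control 3 days and between 6.24 and 10.2 in SP 12 days, with DCN at 0 reads in that control, and its part was not tested either. SP 12 days replicate 3 stood apart from its 2 partners on the second principal component, at 2.63 against 13.6 and 15.4.

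The 250 bases before the RefSeq start are shown for HES1, NRARP and DLL4, because the 3 genes differed in their response. The letters searched on both strands were TGGGAA, the core that RBPJ is known to bind, and GGGCGG, the core of a GC box; capitals mark TGGGAA. Coordinates are those of GRCh38.p14. Windows were searched for 8 of the 10 genes, without DLL1 and HEY1. The HES1 window lies on the plus strand at chr3:194135898-194136147, the NRARP window on the minus strand at chr9:137302272-137302521 and the DLL4 window on the plus strand at chr15:40929090-40929339.
HES1: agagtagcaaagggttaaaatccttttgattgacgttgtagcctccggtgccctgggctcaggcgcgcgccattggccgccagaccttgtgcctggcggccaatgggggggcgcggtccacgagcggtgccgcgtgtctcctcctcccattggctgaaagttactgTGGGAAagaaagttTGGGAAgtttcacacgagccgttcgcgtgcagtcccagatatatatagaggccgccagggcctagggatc
NRARP: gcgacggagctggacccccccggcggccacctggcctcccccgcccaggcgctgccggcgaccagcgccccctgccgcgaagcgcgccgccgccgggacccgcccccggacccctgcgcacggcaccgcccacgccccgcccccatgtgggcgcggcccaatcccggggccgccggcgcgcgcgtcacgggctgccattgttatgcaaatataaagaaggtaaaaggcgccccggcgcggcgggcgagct
DLL4: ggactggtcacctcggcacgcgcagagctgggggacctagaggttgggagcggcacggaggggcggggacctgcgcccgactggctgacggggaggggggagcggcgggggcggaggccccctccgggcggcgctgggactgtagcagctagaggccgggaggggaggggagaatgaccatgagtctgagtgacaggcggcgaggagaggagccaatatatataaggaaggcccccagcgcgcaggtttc
HES1 held 2 copies of TGGGAA on its own strand, at positions -84 and -70 counted back from the start, and no GGGCGG. The windows of NRARP and DLL4 held no TGGGAA, with 4 copies of GGGCGG on the other strand in NRARP and 3 on the same strand in DLL4, so no match of one overlapped the other. Over the 35116 RefSeq windows of the same length, 20.8% held TGGGAA at least once, 2.9% held it 2 or more times and 42.6% held GGGCGG. The windows of NOTCH1, NOTCH2, NOTCH3, JAG1 and JAG2 held no TGGGAA either. A match is a description of the letters and not evidence of binding, and its relation to the changes was not tested.

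Most of the genes that changed had more RNA with SP. A gene is said to have risen or fallen where its adjusted p was under 0.05 in the edgeR quasi-likelihood test, with Benjamini-Hochberg adjustment over all genes tested in the comparison. At 3 h, 4 of the 10 genes rose and 0 fell, where 7.39% of all tested genes rose and 4.11% fell. At 24 h, 5 rose and 0 fell, beside 16.8% and 12.0% of all genes. With the libraries of the same number treated as pairs, 7 rose and 0 fell at 24 h, beside 3441 and 3108 of 17084 genes. At 3 days, 6 rose and 0 fell, beside 25.2% and 23.3%. At 12 days, 6 rose and 1 fell, beside 26.4% and 23.4%. Where 0 fell, 0 also had a lower level at an unadjusted p under 0.05, and 0 fell in DESeq2. The median log2 change of the 10 genes was 0.86 at 3 h, 1.27 at 24 h, 0.79 at 3 days and 0.55 at 12 days, where the median of all tested genes lay between -0.02 and 0.00. With the stricter call of an adjusted p under 0.0001 and a change of at least 2-fold, 3 of the 10 were called at 3 days and 3 at 12 days, beside 8.44% and 9.11% of all genes. In bulk RNA, fewer cells that express a gene and less RNA of it per cell cannot be told apart.

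**Figure D1:**
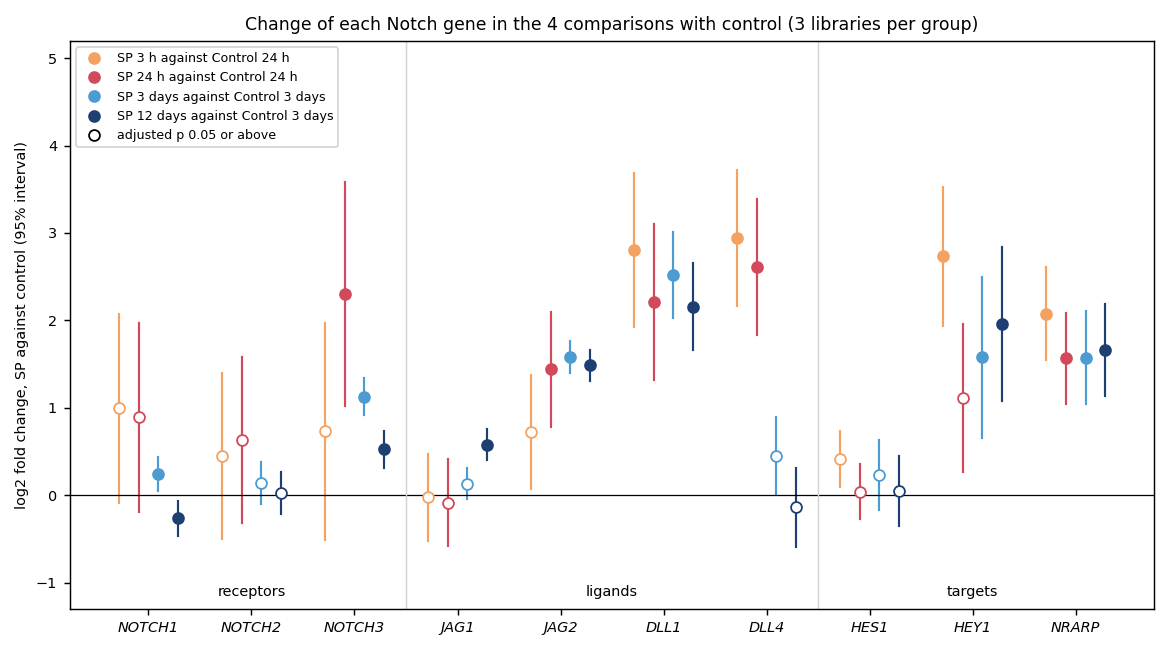
Log2 fold change (y axis) of each of the 10 genes (x axis, grouped as receptors, ligands and targets) in the 4 comparisons with control, with bars for the 95% interval of the edgeR fit and filled points for an adjusted p under 0.05. DLL1 and NRARP lie above 0 in all 4 comparisons, and HES1 is open throughout. DLL4 lies at 2.94 and 2.61 in the first pair and, as open points, at 0.45 and -0.14 in the second.

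Of the receptors, NOTCH3 rose at 24 h, 3 days and 12 days. NOTCH3 (chr19:15159038-15200995, minus strand) is a receptor best known from vascular smooth muscle that epithelial cells also express. Its level was 8.95, 29.4 and 42.5 CPM in the Control 24 h libraries and 120, 138 and 140 CPM in the SP 24 h libraries. After 3 days it was 50.8, 49.8 and 59.8 CPM in control and 113, 115 and 122 CPM with SP, and in SP 12 days 72.7, 70.1 and 87.9 CPM. Every treated library of these 3 groups lay above every control library of its table. The log2 change was 2.30 ± 0.57 (SE, edgeR adjusted p = 0.0163) at 24 h, 1.13 ± 0.10 (adjusted p = 1.99e-07) at 3 days and 0.53 ± 0.10 (adjusted p = 0.000399) at 12 days. Without SP 24 h replicate 2 the adjusted p at 24 h was 0.0505, with a log2 change of 2.27, and without the filter on low counts it was 0.0876. SP 3 h stood at 43.2, 71.6 and 19.6 CPM, inside the range of the control or above it, and its log2 change of 0.73 ± 0.55 did not pass (adjusted p = 0.471).

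NOTCH1 (chr9:136494433-136546048, minus strand), the receptor most often mutated in leukaemia, moved little and in both directions. In the days table it was 47.3, 45.4 and 54.5 CPM in control, 59.0, 54.9 and 60.4 CPM in SP 3 days and 36.8, 43.0 and 42.7 CPM in SP 12 days. SP 3 days thus lay just above the control and SP 12 days just below it. The log2 change was 0.24 ± 0.09 at 3 days (edgeR adjusted p = 0.0421) and -0.26 ± 0.09 at 12 days (adjusted p = 0.0290). The rise at 3 days is not firm: with offsets for GC content and length the log2 change turned to -0.17 (adjusted p = 0.0706), in DESeq2 the adjusted p was 0.0508, and it was 0.147 and 0.157 without replicate 1 or 2 of the control and 0.106, 0.0518 and 0.119 without replicate 1, 2 or 3 of SP 3 days. The fall at 12 days went to -0.18 (adjusted p = 0.133) without Control 3 days replicate 3, to -0.22 (adjusted p = 0.0936) without SP 12 days replicate 1 and to -0.24 (adjusted p = 0.0718) without the filter on low counts. With the GC content and length offsets the fall was larger, at -0.53 (adjusted p = 4.34e-05).

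In the hours table the receptors varied widely among untreated libraries. NOTCH1 read 29.9, 58.4 and 105.1 CPM in Control 24 h, 150, 178 and 58.4 CPM in SP 3 h and 101, 136 and 122 CPM in SP 24 h. NOTCH2 (chr1:119911553-120100779, minus strand) read 53.2, 83.9 and 167 CPM in Control 24 h, 171, 171 and 73.1 CPM in SP 3 h and 144, 169 and 159 CPM in SP 24 h. The groups overlapped for both genes, with the lowest value in Control 24 h replicate 1 and low values in SP 3 h replicate 3. The share of reads in genes with over 10000 bases of exon, a group that holds NOTCH1 and NOTCH2, was 17.1% in Control 24 h replicate 1 and 18.9% to 19.0% in its partners, and 18.1% in SP 3 h replicate 3 against 19.4% and 19.6%; its part in the result was not tested. At 24 h the log2 change was 0.89 ± 0.48 for NOTCH1 and 0.63 ± 0.42 for NOTCH2 (edgeR adjusted p = 0.191 and 0.286), and at 3 h it was 0.99 ± 0.48 and 0.45 ± 0.42 (adjusted p = 0.238 and 0.584). With the libraries of the same number treated as pairs, NOTCH1 at 24 h passed with a log2 change of 1.04 (adjusted p = 0.0427), and it did not with the pairs and offsets for GC content and length together (0.39, adjusted p = 0.465). Without Control 24 h replicate 3 both passed, NOTCH1 at 1.43 (adjusted p = 0.0398) and NOTCH2 at 1.19 (adjusted p = 0.0324).

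Over days NOTCH2 was 116, 125 and 148 CPM in control, 132, 131 and 165 CPM in SP 3 days and 138, 140 and 116 CPM in SP 12 days. The 3 groups overlapped. The 95% interval of its log2 change ran from -0.10 to 0.38 at 3 days and from -0.22 to 0.26 at 12 days. NOTCH2 has near-identical partial copies, the NOTCH2NL genes, so its counts depend on how reads that map to several places were treated, which the sources used here do not give.

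**Figure D2:**
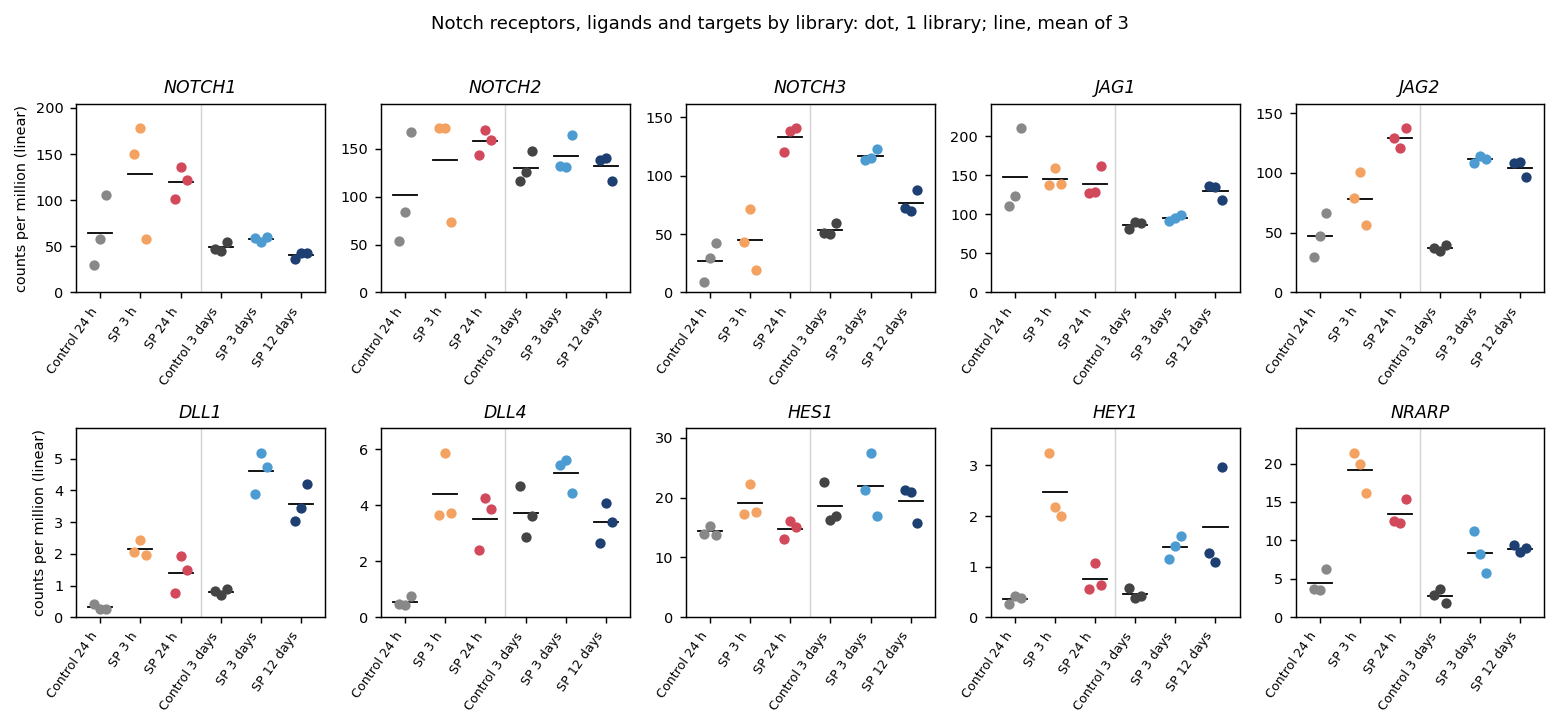
CPM of each of the 10 genes (y axis, linear, from 0) in every library, by group, with a line at the mean of 3 libraries. On the left of each panel the Control 24 h dots of NOTCH1 and NOTCH2 spread from 29.9 to 105.1 and from 53.2 to 167, and in the NRARP panel every SP dot lies above the controls of its table.

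The balance of the 3 receptors within a library was also compared. Levels of different genes were compared as CPM per kb of merged exon, and each receptor was taken as a share of the 3 summed; the tests of these shares and of those of the ligands were chosen once the values were known. NOTCH1 made up 36.4% to 36.7% of the sum in the 3 Control 24 h libraries, although its CPM there differed more than 3-fold. The share of NOTCH3 was 14.6% to 24.4% in Control 24 h and 41.2% to 43.7% in SP 24 h. It was 32.3% to 33.6% in Control 3 days, 47.1% to 50.0% in SP 3 days and 38.7% to 47.4% in SP 12 days. NOTCH3 thus held a larger part of the receptor RNA at 24 h, 3 days and 12 days, with no overlap of the groups. NOTCH1 held a smaller part in the same 3 comparisons. The share of NOTCH2 was 39.2% to 48.7% in Control 24 h and 27.8% to 29.2% in SP 24 h. It was 43.0% to 45.6% in Control 3 days, 32.0% to 35.5% in SP 3 days and, with overlap, 35.3% to 43.6% in SP 12 days. The shares come from one sum, so the smaller parts of NOTCH1 and NOTCH2 are not results separate from the larger part of NOTCH3. All shares, of receptors and of ligands, were taken without offsets for GC content and length. At 3 h the share of NOTCH3 overlapped the control, at 17.2% to 23.8%, and that of NOTCH1 was higher, at 42.0% to 44.7%. A two-sided exact permutation test of 3 libraries against 3 cannot go below p = 0.1, the value it gave for each of these shares that did not overlap (0.127 after adjustment over 28 shares and comparisons).

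Of the ligands, JAG2 and DLL1 rose and JAG1 changed late. JAG2 (chr14:105140982-105168824, minus strand) was 29.3, 47.0 and 66.4 CPM in Control 24 h, 79.0, 100 and 56.2 CPM in SP 3 h and 129, 121 and 137 CPM in SP 24 h. Over days it was 37.2, 34.5 and 39.9 CPM in control, 108, 114 and 111 CPM in SP 3 days and 108, 109 and 96.3 CPM in SP 12 days. From 24 h on, no treated library overlapped its control, and at 3 h 1 of 3 did. The rise was 2.71-fold at 24 h (log2 1.44 ± 0.29, edgeR adjusted p = 0.00674), 2.99-fold at 3 days (1.58 ± 0.08, adjusted p = 9.21e-10) and 2.80-fold at 12 days (1.49 ± 0.08, adjusted p = 1.28e-09). At 3 h the log2 change of 0.72 ± 0.29 did not pass (adjusted p = 0.152); it was 1.04 without Control 24 h replicate 3 (adjusted p = 0.0314) and 0.53 with GC content and length offsets (adjusted p = 0.0318). JAG2, NOTCH1 and NOTCH3 have exons of 64.1%, 63.3% and 63.1% GC, and their log2 changes moved down with those offsets. JAG2 was then at 0.91 at 24 h, 1.18 at 3 days and 1.21 at 12 days, NOTCH3 at 1.82, 0.74 and 0.27, and NOTCH1 at 0.39, -0.17 and -0.53.

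JAG1 (chr20:10637684-10673999, minus strand), the ligand most abundant in untreated cells, did not pass in the hours table. It was 110, 123 and 210 CPM in Control 24 h, 138, 158 and 139 CPM in SP 3 h and 127, 128 and 162 CPM in SP 24 h, so all 3 groups overlapped. Over days JAG1 was 81.1, 90.0 and 88.8 CPM in control, 90.9, 94.7 and 98.9 CPM in SP 3 days and 136, 134 and 118 CPM in SP 12 days. The 12-day libraries lay above both other groups. The log2 change was 0.13 ± 0.08 at 3 days (edgeR adjusted p = 0.202) and 0.58 ± 0.08 at 12 days (adjusted p = 2.67e-05). In the hours table it was -0.03 ± 0.22 at 3 h and -0.09 ± 0.22 at 24 h. Both values turned positive without Control 24 h replicate 3, at 0.31 and 0.25, and neither passed.

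As a share of the summed CPM per kb of the 4 ligands, JAG1 held 63.8% to 71.2% in Control 24 h and 39.6% to 43.5% in SP 24 h. Over days it held 55.4% to 61.0% in control, 33.3% to 35.2% in SP 3 days and 42.9% to 44.5% in SP 12 days. JAG2 went the other way, from 27.5% to 35.5% in Control 24 h to between 53.5% and 58.4% in SP 24 h, and from 34.0% to 37.2% in Control 3 days to between 57.6% and 58.6% in SP 3 days and 50.9% and 51.4% in SP 12 days. JAG1 was thus the leading ligand in both untreated groups and JAG2 in the last 3 treated groups, with no overlap of the shares. These shares come from one sum, mostly JAG1 and JAG2, so a larger share of JAG2 leaves a smaller one to JAG1. The opposite moves are therefore not separate results. At 3 h, when JAG1 held 49.2% to 59.7% and JAG2 35.2% to 45.4%, JAG1 still led. The exact permutation test gave p = 0.1 for each share without overlap, its smallest value.

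**Figure D3:**
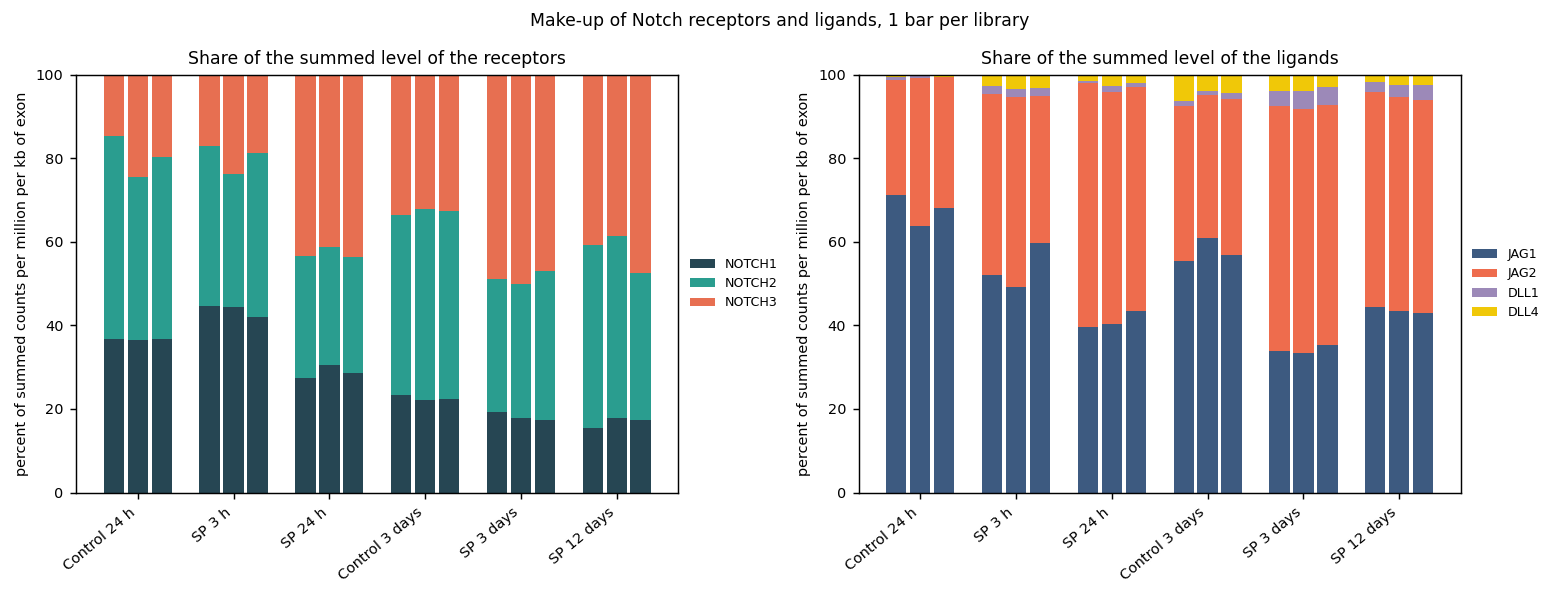
Share of each receptor (left) and each ligand (right) in the summed CPM per kb of exon, in percent (y axis), with 1 stacked bar per library. NOTCH3 and JAG2 take a larger part of the bars in SP 24 h, SP 3 days and SP 12 days than in the controls of the same table, where JAG1 holds 55.4% or more of the ligand bars.

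DLL1 and DLL4 encode Delta-type ligands, DLL4 being known from endothelial tip cells, and both were scarce. DLL1 (chr6:170282206-170306565, minus strand) was 0.424, 0.264 and 0.245 CPM in Control 24 h, from 8, 5 and 7 reads. It was 2.05, 2.43 and 1.96 CPM in SP 3 h and 0.769, 1.93 and 1.49 CPM in SP 24 h. Its level over days was 0.813, 0.689 and 0.887 CPM in control, 3.90, 5.18 and 4.73 CPM in SP 3 days and 3.04, 3.44 and 4.21 CPM in SP 12 days. In all 4 comparisons every treated library was above every control. The rise was 7.0-fold at 3 h (log2 2.81 ± 0.40, edgeR adjusted p = 0.00270), 4.63-fold at 24 h (2.21 ± 0.40, adjusted p = 0.00339), 5.72-fold at 3 days (2.52 ± 0.23, adjusted p = 3.12e-07) and 4.46-fold at 12 days (2.16 ± 0.23, adjusted p = 1.71e-06). DLL1 shares 370 bases of exon with FAM120B on the opposite strand, JAG1 shares 306 with an antisense gene and JAG2 469 with a gene on its own strand; reads there could not be assigned with certainty.

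DLL4 rose in the hours table and not in the days table. It was 0.476, 0.423 and 0.771 CPM in Control 24 h (9, 8 and 22 reads), 3.67, 5.87 and 3.71 CPM in SP 3 h and 2.39, 4.28 and 3.88 CPM in SP 24 h. The treated libraries were all above the control, by a log2 change of 2.94 ± 0.35 at 3 h (edgeR adjusted p = 0.00130) and 2.61 ± 0.35 at 24 h (adjusted p = 0.000716). Over days DLL4 was 4.69, 2.88 and 3.60 CPM in control, 5.43, 5.61 and 4.43 CPM in SP 3 days and 2.66, 4.09 and 3.41 CPM in SP 12 days, and the groups overlapped. The log2 change was 0.45 ± 0.21 at 3 days (adjusted p = 0.0802) and -0.14 ± 0.21 at 12 days (adjusted p = 0.609). The 3-day change passed without Control 3 days replicate 1 (0.66, adjusted p = 0.0320), without SP 12 days replicate 3 (0.44, adjusted p = 0.0418) and when only the 2 groups were fitted (0.44, adjusted p = 0.0354).

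The treated libraries of DLL4 ran from 2.39 to 5.87 CPM over hours and from 2.66 to 5.61 CPM over days, while untreated cells had 0.423 to 0.771 CPM in one control and 2.88 to 4.69 CPM in the other; the 2 tables were scaled separately. The tables differ in experiment, time in culture and treatment time together, so these cannot be told apart. In one model over all 18 libraries, chosen once the values were known, the log2 change of DLL4 at 24 h exceeded that at 3 days by 2.11 ± 0.42 (edgeR adjusted p = 0.00709). None of the other 9 genes passed this test, which 6.28% of 18785 tested genes passed. For NOTCH3 the difference was 1.12 ± 0.62 (adjusted p = 0.320) and for DLL1 -0.34 ± 0.50 (adjusted p = 0.741). PECAM1, CDH5 and VWF, markers of endothelium, summed to between 0.581 and 0.701 CPM in Control 24 h, with VWF at 0 reads there. They summed to between 2.44 and 2.88 CPM in Control 3 days and between 0.244 and 0.519 in SP 3 h. The part of these markers in the level of DLL4 was not tested.

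Among the targets, NRARP and HEY1 rose and HES1 did not pass in any comparison. NRARP (chr9:137299631-137302271, minus strand) was 3.65, 3.49 and 6.31 CPM in Control 24 h, 21.4, 19.9 and 16.2 CPM in SP 3 h and 12.6, 12.3 and 15.3 CPM in SP 24 h. Over days NRARP was 2.92, 3.70 and 1.83 CPM in control, 11.2, 8.17 and 5.80 CPM in SP 3 days and 9.36, 8.43 and 8.99 CPM in SP 12 days. No treated library overlapped its control in any of the 4 comparisons. The rise was 4.22-fold at 3 h (log2 2.08 ± 0.24, edgeR adjusted p = 0.00113), 2.96-fold at 24 h (1.56 ± 0.23, adjusted p = 0.00131), 2.97-fold at 3 days (1.57 ± 0.25, adjusted p = 0.000121) and 3.17-fold at 12 days (1.66 ± 0.24, adjusted p = 6.14e-05). NRARP has a single merged exon, 73 bases of which overlap an antisense gene, and its window above holds no TGGGAA.

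HEY1 encodes a repressor of the HES-related family and was the scarcest of the 10 genes per kb of exon in all 6 groups. That rank depends on a merged exon that covers its whole gene of 5487 bases. By mean CPM, DLL1 was lower than HEY1 in Control 24 h and SP 3 h and higher in the other groups. HEY1 was 0.265, 0.423 and 0.386 CPM in Control 24 h, from 5, 8 and 11 reads. It was 3.25, 2.17 and 1.997 CPM in SP 3 h and 0.566, 1.07 and 0.642 CPM in SP 24 h. The 3 h libraries were far above the control and the 24 h libraries only just, by a log2 change of 2.73 ± 0.35 (edgeR adjusted p = 0.00194) and 1.11 ± 0.38 (adjusted p = 0.0525). At 24 h it passed with libraries of the same number as pairs (1.04, adjusted p = 0.0479), with GC content and length offsets (1.22, adjusted p = 0.0291), without the filter on low counts (1.12, adjusted p = 0.0498) and without SP 24 h replicate 1 (1.26, adjusted p = 0.0470). Over days HEY1 was 0.574, 0.376 and 0.414 CPM in control, 1.16, 1.40 and 1.61 CPM in SP 3 days and 1.27, 1.10 and 2.97 CPM in SP 12 days. The log2 change was 1.58 ± 0.44 at 3 days (adjusted p = 0.00714) and 1.96 ± 0.41 at 12 days (adjusted p = 0.000983), and the highest 12-day value came from replicate 3, the library that stood apart. Without it the log2 change at 12 days was 1.31.

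HES1 (chr3:194136148-194138732, plus strand), the best-known direct target of Notch, lay between 13.1 and 27.5 CPM in all 18 libraries. It was 13.9, 15.3 and 13.8 CPM in Control 24 h, 17.2, 22.4 and 17.7 CPM in SP 3 h and 13.1, 16.1 and 15.1 CPM in SP 24 h. Over days HES1 was 22.6, 16.4 and 16.9 CPM in control, 21.3, 27.5 and 17.0 CPM in SP 3 days and 21.4, 21.0 and 15.8 CPM in SP 12 days. Only the 3 h libraries lay apart from their control, all above it. The log2 change at 3 h was 0.41 ± 0.14 (edgeR adjusted p = 0.0985), and with GC content and length offsets it was 0.48 (adjusted p = 0.0323). The 95% intervals ran from -0.28 to 0.36 at 24 h, -0.17 to 0.63 at 3 days and -0.35 to 0.44 at 12 days, so a change of the size seen in NRARP was outside each of them. HES1 is the gene whose window above holds TGGGAA 2 times.

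Comparing treated groups with each other, HEY1 fell between 3 h and 24 h of SP, by a log2 change of -1.62 ± 0.30 (edgeR adjusted p = 0.00627), and the other 9 genes did not pass. This was 1 gene lower and 0 higher of 10, beside 8.40% and 11.7% of all genes; 2 genes, NOTCH3 and JAG2, were higher at an unadjusted p under 0.05, and NOTCH3 rose in DESeq2 (1.57, adjusted p = 0.0152). Without Control 24 h replicate 1, which enters through the shared spread, NOTCH3 and JAG2 rose as well (adjusted p = 0.0414 and 0.0495), and without Control 24 h replicate 3, JAG2 rose and NRARP fell (adjusted p = 0.0448 and 0.0303). NRARP and HES1 were lower at 24 h in every library, at -0.51 ± 0.22 and -0.37 ± 0.14, without passing (adjusted p = 0.134 and 0.0932).

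Between 3 and 12 days of SP, NOTCH1 fell by a log2 change of -0.51 ± 0.09 (edgeR adjusted p = 0.00382), NOTCH3 fell by -0.60 ± 0.10 (adjusted p = 0.00148) and JAG1 rose by 0.45 ± 0.08 (adjusted p = 0.00340). This was 1 higher and 2 lower of 10, beside 4.46% and 3.65% of all genes. Without SP 12 days replicate 3 the count went from 3 to 5, as DLL1 (-0.51, adjusted p = 0.0402) and DLL4 (-0.60, adjusted p = 0.0339) fell too. JAG2 and NRARP did not pass, at -0.09 and 0.09, with 95% intervals from -0.27 to 0.08 and from -0.38 to 0.56. No untreated group was taken at 12 days, so length of treatment and time in culture cannot be told apart here.

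Per kb of merged exon, JAG1 was the most abundant of the 10 genes in Control 24 h, at 15.9 ± 5.83 CPM per kb (SD, n = 3), and in Control 3 days, at 9.32 ± 0.519. In Control 3 days HES1 (9.04 ± 1.67) and NOTCH2 (7.74 ± 0.970) came next, each within the spread of its neighbour, followed by JAG2 (5.82 ± 0.420) and NOTCH3 (5.68 ± 0.587), which did not differ beyond theirs. JAG2 led in SP 24 h at 20.2 ± 1.28, in SP 3 days at 17.4 ± 0.468 and in SP 12 days at 16.3 ± 1.09, and NOTCH3 came next in SP 3 days at 12.4 ± 0.532. DLL4, DLL1 and HEY1 were the lowest of the 10 in every group. In SP 3 days DLL1 and DLL4 stood at 1.21 ± 0.170 and 1.08 ± 0.134 CPM per kb and HEY1 at 0.254 ± 0.0416. The merged exon of HEY1 covers its whole gene of 5487 bases, so its level per kb depends on transcripts that keep introns being annotated.

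The rest of the pathway was described with a list of 60 further Notch genes, of which 56 passed the filter in each table. At 3 h, 7 rose and 3 fell (12.5% and 5.36% of those tested). At 24 h the counts were 16 and 6 (28.6% and 10.7%), at 3 days 22 and 9 (39.3% and 16.1%) and at 12 days 21 and 13 (37.5% and 23.2%). These shares stand beside the percentages given above for all genes. The median log2 change of the list was 0.07, 0.25, 0.15 and 0.14 in that order. Without SP 24 h replicate 2 the 24 h count went from 22 to 14, and without SP 3 h replicate 2 the 3 h count went from 10 to 6. With libraries of the same number as pairs, 20 rose and 9 fell at 24 h.

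The HES and HEY factors of the list, which include relatives of HES1 with other binding partners, held some of the largest changes. All 5 tested rose at 24 h, and 4 rose at 3 days and at 12 days, where 16.8%, 25.2% and 26.4% of all genes rose. HES7, known as a clock gene of the embryo's segments, was 1.01, 1.16 and 1.68 CPM in Control 24 h, 16.8, 13.3 and 13.8 CPM in SP 3 h and 11.1, 11.5 and 13.3 CPM in SP 24 h. It was thus already high at 3 h, with a log2 change of 3.48 ± 0.21 (edgeR adjusted p = 0.000104), and it was higher by 3.19, 2.48 and 2.51 in the later comparisons. HES2 rose by 2.46 at 3 h, 3.95 at 24 h, 2.69 at 3 days and 2.96 at 12 days. HES6, which is known to counteract HES1, rose by 1.01 at 3 days and 1.09 at 12 days (adjusted p = 1.18e-05 and 4.57e-06). Its change of 0.61 at 24 h (adjusted p = 0.0152) turned to -0.04 with GC content and length offsets, and the adjusted p was 0.0560 without Control 24 h replicate 2 and 0.0524 and 0.0537 without replicates 1 and 3 of SP 24 h.

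DTX1, a Deltex-type ubiquitin ligase that acts on Notch receptors and is itself a known target, had the largest log2 change of the list at 24 h, 3 days and 12 days. It was 0.424, 0.317 and 0.386 CPM in Control 24 h, 6.07, 6.85 and 6.01 CPM in SP 24 h, 0.239, 0.313 and 0.709 CPM in Control 3 days and 10.6, 11.6 and 10.7 CPM in SP 3 days. The treated libraries were far above the controls. Its log2 change was 4.05 at 24 h (edgeR adjusted p = 6.14e-05), 4.71 at 3 days and 4.62 at 12 days (adjusted p = 2.11e-09 and 2.29e-09). At 3 h it was 1.56 (adjusted p = 0.0211), and this did not pass without Control 24 h replicate 1 or 2 (adjusted p = 0.0546 and 0.0738) or without SP 3 h replicate 2 (1.10, adjusted p = 0.0783), nor when only the 2 groups were fitted (adjusted p = 0.0816). DTX4, a relative, rose in all 4 comparisons by 0.85, 0.89, 1.26 and 0.98; at 3 h it did not pass without Control 24 h replicate 1, SP 3 h replicate 1 or SP 3 h replicate 2 (adjusted p = 0.0611, 0.0560 and 0.103), nor with only the 2 groups (0.0770). DTX3L fell in all 4, by -1.05, -1.01, -0.84 and -0.75, and shares 139 bases with PARP9 on the opposite strand.

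Of the genes that modify ligands and receptors, LFNG, the Fringe glycosyltransferase that shifts a receptor's preference between ligand types, rose by 1.07 at 3 h (edgeR adjusted p = 0.00535), 0.95 at 24 h (adjusted p = 0.00421), 0.68 at 3 days (adjusted p = 0.00162) and 0.44 at 12 days (adjusted p = 0.0224). The last did not pass without Control 3 days replicate 1 or 2 (adjusted p = 0.0716 and 0.101), without SP 12 days replicate 3 (0.19, adjusted p = 0.106), with only the 2 groups fitted (adjusted p = 0.0563) or with GC content and length offsets (0.21, adjusted p = 0.165). NEURL1, a ligase for ligands, changed by 0.78 at 3 h without passing and rose by 2.79 at 24 h, 2.07 at 3 days and 1.79 at 12 days. The ligand-like genes DNER and DLK2 rose from 24 h on, DNER by 2.18, 2.81 and 3.34 and DLK2 by 0.97, 1.25 and 0.69. ADAM10, which makes the first cut, changed by 0.52 at 24 h (adjusted p = 0.163), passing there with libraries of the same number as pairs (0.56, adjusted p = 0.0121) and with GC content and length offsets (0.94, adjusted p = 0.000115). It rose by 0.36 at 3 days and 0.35 at 12 days (adjusted p = 0.00292 and 0.00352), and ADAM17 by 0.39 at 24 h and 0.36 at 3 days (adjusted p = 0.0125 and 0.000840). The 24 h value of ADAM17 did not pass without Control 24 h replicate 1 or SP 24 h replicate 2 (adjusted p = 0.0586 and 0.0590). The 6 gamma-secretase subunits had log2 changes between -0.70 and 0.36 in the comparisons with control, and 2 fell at 24 h and 2 at 12 days, where 12.0% and 23.4% of all genes fell. With GC content and length offsets APH1B rose at 24 h (0.60, adjusted p = 0.0182), and PSENEN rose at 3 days (0.22, adjusted p = 0.0365) and at 12 days (0.34, adjusted p = 0.00311).

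The nuclear partners included genes that fell in the days table. RBPJ had log2 changes of -0.03, -0.39, 0.03 and 0.06, none of which passed. The 24 h value passed with libraries of the same number as pairs (-0.37, edgeR adjusted p = 0.0439) and without Control 24 h replicate 3 (-0.63, adjusted p = 0.0198), and turned to 0.049 with GC content and length offsets (adjusted p = 0.742). RBPJ has 4 annotated pseudogenes that could share its reads. Of the 9 genes of the nuclear complex, 5 fell and 1 rose at 3 days, where 23.3% of all genes fell and 25.2% rose, and 7 fell and 1 rose at 12 days, where 23.4% fell and 26.4% rose. CREBBP, a histone acetyltransferase of the p300 family, was 117, 120 and 129 CPM in Control 3 days, 60.0, 57.9 and 65.5 CPM in SP 3 days and 52.3, 60.9 and 56.3 CPM in SP 12 days. It fell by -0.998 at 3 days and -1.11 at 12 days (adjusted p = 1.30e-07 and 3.46e-08). MAML2, a Mastermind coactivator, was the member that rose, by 1.02 and 0.99 at these times and by 0.77 at 3 h. TLE2, a Groucho-type corepressor, rose by 2.23 at 24 h, 1.41 at 3 days and 1.29 at 12 days.

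**Figure D4:**
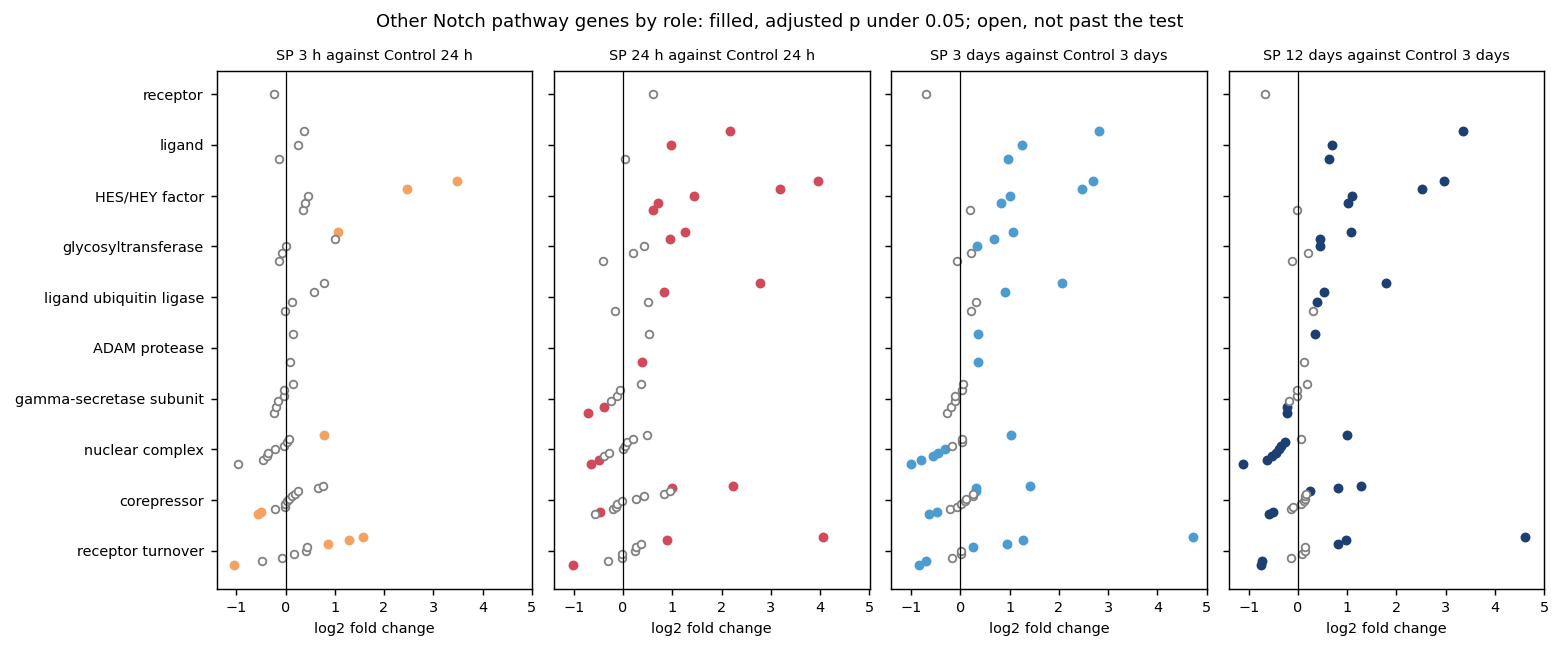
Log2 fold change (x axis) of the 56 tested genes of the wider Notch list, by role (y axis), in the 4 comparisons with control, with filled points for an adjusted p under 0.05. The points farthest to the right are HES7 at 3 h and DTX1 from 24 h on, and the nuclear complex lies mostly left of 0 in the 2 later comparisons.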

How the data were processed

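RNA-seq counts were taken from 2 deposited tables of whole-number read counts per Ensembl gene, 9 libraries each. The authors made these raw counts from NEBNext Ultra libraries; the submitters' processing notes name FastQC, STAR 2.7.9a, featureCounts and GRCh38. Strandedness and the treatment of reads mapping to several places are not given in the sources used here. The 10 genes and the wider list were chosen with earlier results of these data known. Of 61541 genes, 61369 matched GENCODE v44.

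Genes were filtered with filterByExpr (minimum count 10), which left 17377 genes in the hours table and 17775 in the days table. Each table was fitted with its 9 libraries in edgeR 4.0.16 (R 4.3.3; TMM factors, robust quasi-likelihood test, a term for the group), with Benjamini-Hochberg adjustment. CPM use TMM-scaled library sizes. DESeq2 1.42.0, RLE factors, no filter, offsets for GC content and length, replicate blocks, fits of only the groups compared and the removal of each library were alternatives. The study describes the replicates as biological. Same-numbered libraries deviated together in SP 24 h against Control 24 h (correlations 0.17, 0.499 and 0.504). They were taken as pairs there and not elsewhere, as an alternative to the main fit, which held no pairs. In SP 3 h against Control 24 h, libraries of unlike number reached a correlation of 0.576.

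All 10 genes were named, and of the list the 12 with the smallest p among those past a 2-fold change and an adjusted p under 0.05 against a control, plus RBPJ, ADAM10, ADAM17 and LFNG. The script was tested on simulated data. The median standard error of a log2 change was 0.202 in the hours table and 0.129 in the days table. The coefficient of variation between replicates, from the common dispersion, was 0.1985 in the hours table and 0.0996 in the days table. Values from single-digit reads are the least certain.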

Additional observations from a re-analysis of the deposited data

Results flagged for a closer look

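Each result here was picked because a level or a change differed between times of treatment by a test of that difference. HEY1, NOTCH1, NOTCH3 and JAG1 were compared between treated groups, and no untreated group was taken at 3 h or at 12 days. Between 3 days and 12 days, length of treatment and time in culture cannot be told apart. HEY1 was lower at 24 h than at 3 h of SP, by a log2 change of -1.62 (edgeR adjusted p = 0.00627), 0.566 to 1.07 CPM against 1.997 to 3.25 CPM. NOTCH1 was lower at 12 days than at 3 days of SP, by -0.51 (adjusted p = 0.00382), and NOTCH3 by -0.60 (adjusted p = 0.00148). JAG1 was higher at 12 days than at 3 days, by 0.45 (adjusted p = 0.00340). The change of DLL4 at 24 h exceeded that at 3 days by 2.11 (adjusted p = 0.00709), and over the fits that each left out 1 of the 18 libraries the difference lay between 1.90 and 2.54 (adjusted p between 0.00318 and 0.0259). That model was chosen once the values were known, and in it the table, the time in culture and the length of treatment cannot be told apart. Groups of 3 libraries were too small for a test of single outlying samples.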

How the results depend on the processing

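Depth limits DLL1, HEY1, DTX1, HES2 and DLL4 among others: in Control 24 h they rest on 5 to 22 reads per library, and their levels there are uncertain by counting alone. Of 92 to 93 values of single genes, DESeq2 kept 91, RLE factors 93, no filter on low counts 90 and GC content and length offsets 86 on the same side of the threshold and in the same direction. The replicate block over 9 libraries kept 91, the block with those offsets 85 and fits of only the 2 groups 88. The block in only the 2 groups kept 76 and the stricter call 44. With 1 library left out, 803 of 846 values were kept. The stricter call of adjusted p under 0.0001 and 2-fold left 0 of the 10 genes at 3 h, 0 at 24 h, 3 at 3 days and 3 at 12 days. It left 0 of the 10 genes between either pair of treated groups, and of the wider list 0, 2, 10, 9, 0 and 0. Of all genes, 8.44% passed this call at 3 days and 9.11% at 12 days. Its share over all genes was not counted in the other comparisons, so their counts cannot be set beside it. Under DESeq2 the same call gave 4, 4, 4 and 3 of the 10 genes against the controls, also without a share over all genes. From SP 3 h to SP 24 h, 1 of the 10 genes changed; DESeq2, the GC content and length offsets and the replicate block with only these 2 groups each gave 2, and the block with those offsets and the fit of only the 2 groups each gave 4. Of the wider list 8 changed there, and 13 with the offsets and 15 with block and offsets. From 3 to 12 days of SP, 4 of the wider list changed, and 2 both with only the 2 groups and with the block in them.

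With the replicate block in only the 2 groups of the 3 h comparison, 0 of the 10 genes and 0 of the list passed, as did 0 of all genes; 4 of the 10 and 12 of the list had an unadjusted p under 0.05. The wider list at 3 h gave 10 calls, 6 with only the 2 groups and 17 with block and offsets. Same-numbered libraries did not deviate together there (correlations from -0.592 to -0.028), nor in the comparisons at 3 days (0.033 to 0.162) and 12 days (-0.01 to 0.028). In the 24 h comparison, where libraries were paired, the block changed the call of NOTCH1 and HEY1 among the 10 genes.

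NOTCH1 at 3 days turned to -0.17 with the offsets, with or without the block. JAG1 at 3 h turned to 0.030 with the block over 9 libraries, 0.020 with it in the 2 groups and 0.011 with block and offsets. HES6 at 24 h turned to -0.039 with the offsets and -0.035 with the block too. With each library left out in turn, 1 to 3 of the 10 genes changed from SP 3 h to SP 24 h and 3 to 5 from 3 to 12 days of SP; of the wider list, 6 to 12 changed at 3 h, 14 to 31 at 24 h (31 without Control 24 h replicate 3) and 1 to 16 from 3 to 12 days (the lowest with SP 3 days replicate 1 left out, the highest with SP 12 days replicate 3). The log2 change ranged from -0.22 to 0.31 for JAG1 at 3 h, -0.29 to 0.25 for JAG1 at 24 h, -0.056 to 0.12 for NOTCH2 at 12 days, -0.31 to 0.066 for DLL4 at 12 days, -0.027 to 0.11 for HES1 at 24 h and -0.049 to 0.21 for HES1 at 12 days. The cause of these differences was not tested.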
